A study of Drosophila melanogaster with 5 samples.

Results

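Heads of flies overexpressing histone H1 (H1OE) were compared directly with heads of flies fed Levodopa, both at 29 °C, without passing through the 29 °C control. Genes entered the comparison when they had at least 50 counts in 1 of the 2 libraries, which left 9171 of the 24034 features in the count table. Each side was 1 library, so the results are sizes with no test and no p-value. For H1OE, parents carrying a temperature-sensitive Elav driver and parents of the H1 overexpression strain were mated at 18 °C, and their offspring spent 7 days at 29 °C. These flies are not labelled as given Levodopa. The Levodopa flies were wild type by label, held at 29 °C, and ate standard food with 4 g/L Levodopa over 7 days. The labels give neither the temperature they grew up at nor how long they were at 29 °C, and no age, sex or number of flies for either library. Genotype, driver and drug differ together between the libraries, genetic background and rearing are not matched by label, and these cannot be told apart. The driver limits the transgene to neurons by name, whereas the RNA came from tissue labelled both as heads and as brain. Of the 5 samples of the series, the wild-type control at 29 °C and the control and Levodopa samples at 25 °C are used only as values beside these.

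Histone H1 is the linker histone, which binds DNA between nucleosomes and helps to compact chromatin. Elav is a neuronal RNA-binding protein whose promoter is widely used to drive transgenes in fly neurons. Levodopa is the product of tyrosine hydroxylase and the direct precursor of dopamine, and in insects dopamine serves both as a transmitter and as a precursor of cuticle pigment. A fly head holds brain, compound eyes, antennae, mouthparts, muscle and the fat body that surrounds the brain, so differences in any of these reach a head library.

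The H1OE library held 26832877 counts, the Levodopa library 25975838 and the control library 24770629. For a gene at 0 counts the upper limit is 3 counts, which is 0.112 CPM (counts scaled to a fixed library size) for the H1OE library and 0.115 CPM for the Levodopa library. This floor and the 95% intervals below cover counting error only. The 23 His1 genes had 0 counts in all 3 libraries, so these polyA libraries did not check the overexpression label. The driver gene elav had 4094 counts in H1OE and 3190 in Levodopa, a log2 ratio of 0.29. Neuronal, photoreceptor, glial and muscle markers were present in both libraries and 0 of them differed 2-fold. The 7 neuronal markers summed to 3239 CPM in H1OE and 3093 in Levodopa, and the 6 glial markers to 1937 and 2488 CPM. The 5 gut markers summed to 425 CPM in H1OE and 43.4 CPM in Levodopa, most of it the amylase gene Amy-p in each, while the trypsin genes alphaTry and betaTry were at 0 in both. Of the ovary markers vas was higher in H1OE (57 counts against 7) and Vm26Aa and Cp36 were at 0 in both. Of the testis markers betaTub85D was higher (73 against 26) and Mst84Da, Mst87F and dj were at 0 in both. The part of such tissue in the results was not tested.

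Printed log2 ratios are H1OE over Levodopa after 10 counts were added to both scaled libraries, and 2-fold on that scale is called higher or lower. In H1OE 180 genes were higher, 1.96% of those compared, and 187 were lower, 2.04%. Counts of list members called below are to be set beside these shares. A short list with no call does not depart from them. Differences of at least 4-fold numbered 41 higher and 43 lower, and 88.9% of genes lay within 1.5-fold. The median log2 ratio of all genes compared was -0.00. No repeat library exists at 29 °C to set these counts against. At 25 °C, where each sample has 2 columns of counts, the same rule between the columns of the control called 20 of 9196 genes (0.217%), and between those of the Levodopa sample 2 of 9431 (0.0212%). Whether those columns come from separate flies is not stated, so they measure a spread that may be technical. In bulk heads, fewer cells of a type and less RNA per cell cannot be told apart, which touches every result below.

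**Figure D1:**
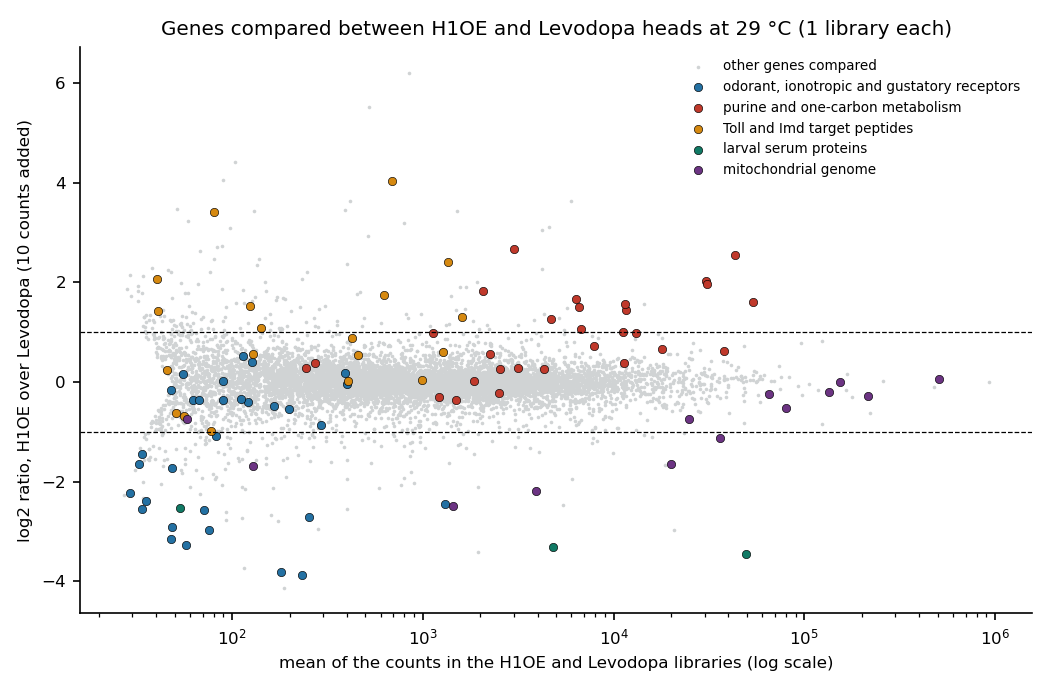
Log2 ratio of H1OE over Levodopa (vertical axis, 10 counts added) against the mean count of the 2 libraries (log axis) for the 9171 genes compared, 1 point a gene, with dashed lines at 2-fold. The purine and one-carbon genes above the upper line have high counts, the chemosensory receptors below the lower line mostly low counts, and the larval serum proteins lie between -2.54 and -3.46.

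For the called genes, the scaled 29 °C control count was nearer to the Levodopa library in 147 of the 180 higher genes and in 169 of the 187 lower genes. It was nearer to H1OE in the other 33 and 18. The 367 called genes thus held mostly cases in which H1OE stood apart from both other 29 °C libraries. Among the exceptions are the immune peptide genes Drs and Mtk, the amylase gene Amy-p and the cilium gene Ttc26, given below. The mitosis genes Klp67A, Nuf2 and mars are others.

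The lipid enzyme genes mag and CG31683 had the largest log2 ratios on the higher side. Lipid genes as lists were not higher. The lipid droplet and lipase list and the fatty acid oxidation list, given below, had medians of -0.05 and -0.47. The lipase gene mag (magro), whose product digests triglycerides and cholesterol esters in the gut, had 1678 counts in H1OE, 12 in Levodopa and 13 in the control. This was 134-fold higher in H1OE than in Levodopa (counting interval 76.3 to 259). CG31683, annotated by the authors as similar to a mammalian lysosomal phospholipase, had 1035 counts against 12 (82.4-fold, 47.0 to 160), with 16 in the control. CG11425, similar to phosphatidate phosphatases, was farther down among the 15 largest ratios. It had 1450 counts in H1OE against 142 in Levodopa (9.75-fold, 8.20 to 11.7), with 107 in the control. All 3 were near the level of the control in the Levodopa library and stood out in H1OE alone. In the 4 columns of the 25 °C table, which are set beside these without scaling, mag had 0 to 7 counts and CG31683 had 1 to 5, while CG11425 had 477 to 582.

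The neighbours of mag were higher with it. On chromosome arm 3L of the dm6 build, mag (20460683 to 20462274, plus strand) lies within the span of atk (20454690 to 20464862, minus strand), and the annotated exons of mag and atk do not overlap. The gene atk (artichoke), which encodes a leucine-rich repeat protein of the extracellular matrix, had 2789 counts in H1OE, 239 in Levodopa and 236 in the control (11.1-fold, 9.76 to 12.8). Downstream, CG5955 (20466944 to 20469592), similar to threonine dehydrogenases, had 2685 counts against 679 (3.78-fold, 3.47 to 4.12), with 790 in the control. Strand is not stated for these libraries, so reads of nested genes cannot be assigned beyond doubt.

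Other large differences fell on enzymes and transporters of several kinds. Amy-p, an alpha-amylase gene, had 11138 counts in H1OE, 849 in Levodopa and 4799 in the control (12.5-fold, 11.7 to 13.5). Its near-identical copy Amy-d had 8551 counts in H1OE and 11941 in Levodopa, so the split of reads between the copies is uncertain. Mdr50, an ABC transporter gene, had 775 counts against 51 (14.5-fold, 10.9 to 19.7), and 176 in the control. Cyp4p2, a cytochrome P450 gene, had 724 against 54 (12.8-fold, 9.71 to 17.2), and 57 in the control. CG1673, a branched-chain amino acid aminotransferase by annotation, had 8311 against 911 (8.71-fold, 8.14 to 9.34), and 1861 in the control. The cuticle pigmentation gene y (yellow), a common strain marker, had 115 counts in H1OE, 3 in Levodopa and 5 in the control, and 23 to 84 in the 25 °C columns. The eye colour gene w (white), another strain marker, had 2832 counts in H1OE and 3531 in Levodopa (-0.38).

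**Figure D2:**
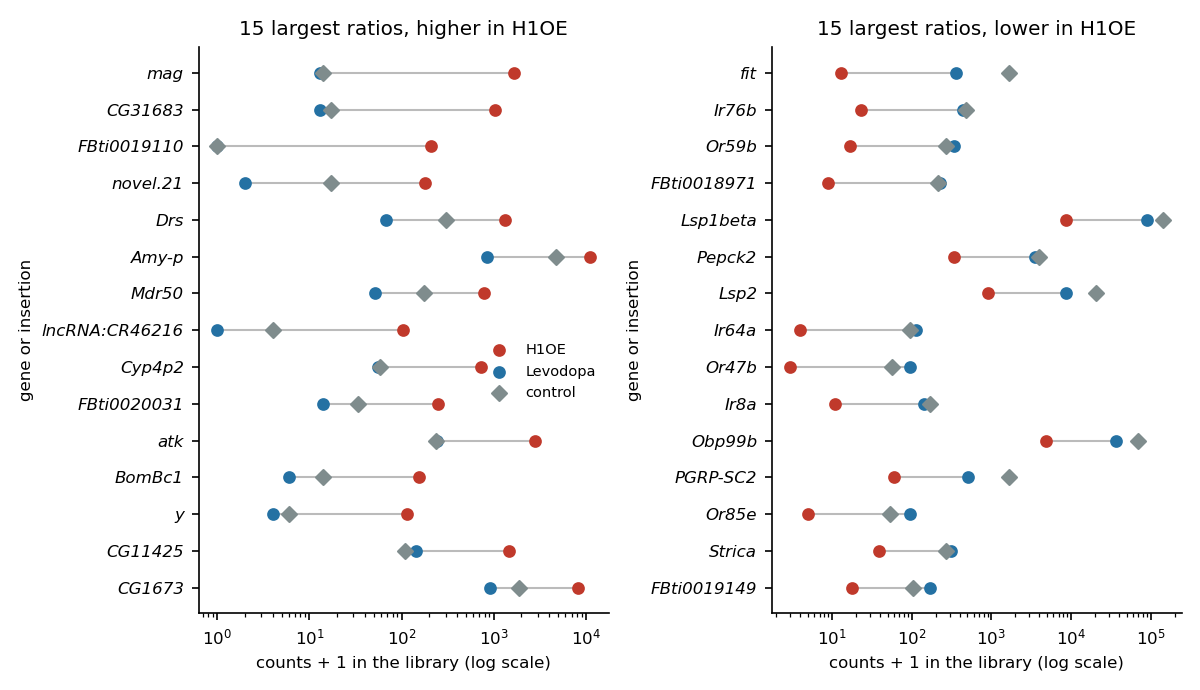
Counts + 1 (log axis) of the 15 genes with the largest log2 ratio in each direction in the H1OE, Levodopa and control libraries at 29 °C, 1 library each; a grey line joins H1OE and Levodopa. For mag and CG31683 the Levodopa and control points nearly coincide at 12 to 16 counts, for FBti0019110 they coincide at 0, and for fit, Lsp2 and PGRP-SC2 the control lies beyond the Levodopa point.

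Several genes of purine synthesis and of the serine, glycine and folate metabolism that feeds it were higher in H1OE. De novo synthesis builds the purine ring on ribose phosphate in a chain of enzymatic steps, taking up glycine, glutamine, aspartate and folate-bound carbon units. Of 11 genes in this list, 5 were higher and 0 lower, where 1.96% of all genes compared were higher, with a median log2 ratio of 0.71. The list was drawn up after these values were seen, so its count is a description. Prps, which makes the activated ribose phosphate, had 17200 counts in H1OE and 6001 in Levodopa (2.74-fold, 2.66 to 2.82). The committing enzyme is encoded by Prat and Prat2, and neither reached 2-fold. Prat had 317 counts against 229 (0.39), and Prat2 had 9963 against 5797 (0.71).

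The largest differences on the purine list were those of Pfas, Gart and CG11089. Pfas, which encodes formylglycinamidine ribonucleotide synthase, had 74257 counts in H1OE, 12166 in Levodopa and 12972 in the control (5.83-fold, 5.72 to 5.94). Per length this was 625 against 107 FPKM (counts scaled to gene length and library size). Gart, which encodes an enzyme with 3 activities in the pathway, had 49699 counts in H1OE, 11666 in Levodopa and 16808 in the control (4.07-fold, 3.99 to 4.15). CG11089, the bifunctional enzyme of the final steps to IMP by annotation, had 49791 against 12128 (3.92-fold, 3.84 to 4.00), and 20691 in the control. AdSL, adenylosuccinate lyase, had 9795 against 2928 (3.20-fold, 3.07 to 3.33), and 4604 in the control. For these genes the Levodopa library was the lowest of the 3 at 29 °C and H1OE the highest. Paics, between them in the pathway, had 46464 against 28980 counts (0.61).

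Of the enzymes beyond IMP, AdSL also acts on the branch to AMP and was higher, as given above. AdSS, on the same branch, had a log2 ratio of 0.25. On the branch to GMP, ras (raspberry, IMP dehydrogenase) had -0.22 and bur (burgundy, GMP synthase) 0.28. The cuticle gene Pcp, nested in an intron of Gart on the opposite strand, had 162 counts in H1OE, 15 in Levodopa and 13 in the control. Reads of Gart pre-mRNA and of Pcp cannot be told apart without strand. Of the 5 higher purine genes only AdSL has no exonic overlap with another annotated gene.

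The serine, glycine and folate list was also drawn up after the values were seen. Of its 18 genes, 8 were higher (44.4%, against 1.96% of all genes compared) and 0 lower, with a median log2 ratio of 0.98. Nmdmc, the NAD-dependent methylenetetrahydrofolate dehydrogenase, had 5255 counts in H1OE, 785 in Levodopa and 1237 in the control (6.39-fold, 5.93 to 6.90). pug, the trifunctional enzyme that interconverts folate-bound carbon units in the cytosol, had 81820 counts against 25612 (3.05-fold, 3.01 to 3.09), and 34815 in the control. CG3999, the glycine dehydrogenase of the glycine cleavage system by annotation, had 3253 against 873 (3.56-fold, 3.3 to 3.84). The other members of that system on the list were not higher, with log2 ratios of 0.02 for CG6415 and -0.36 for ppl.

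Serine synthesis was graded. The final enzyme, phosphoserine phosphatase (aay), had 17390 counts in H1OE and 5574 in Levodopa (2.98-fold, 2.89 to 3.07). CG11899, the aminotransferase before it, had 9278 against 4256 (2.08-fold, 2.01 to 2.16). CG6287, the dehydrogenase at the start, had 17732 against 8618, just short of 2-fold (0.97). Shmt, which transfers a carbon from serine to folate, had 22500 against 13537 (0.67). In the methyl cycle, the S-adenosylhomocysteine hydrolase gene Ahcy was 2.84-fold higher (2.73 to 2.96) and the sarcosine dehydrogenase gene Sardh 2.42-fold (2.32 to 2.54). The S-adenosylmethionine synthetase gene Sam-S had 13098 against 9611 counts (0.38).

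**Figure D3:**
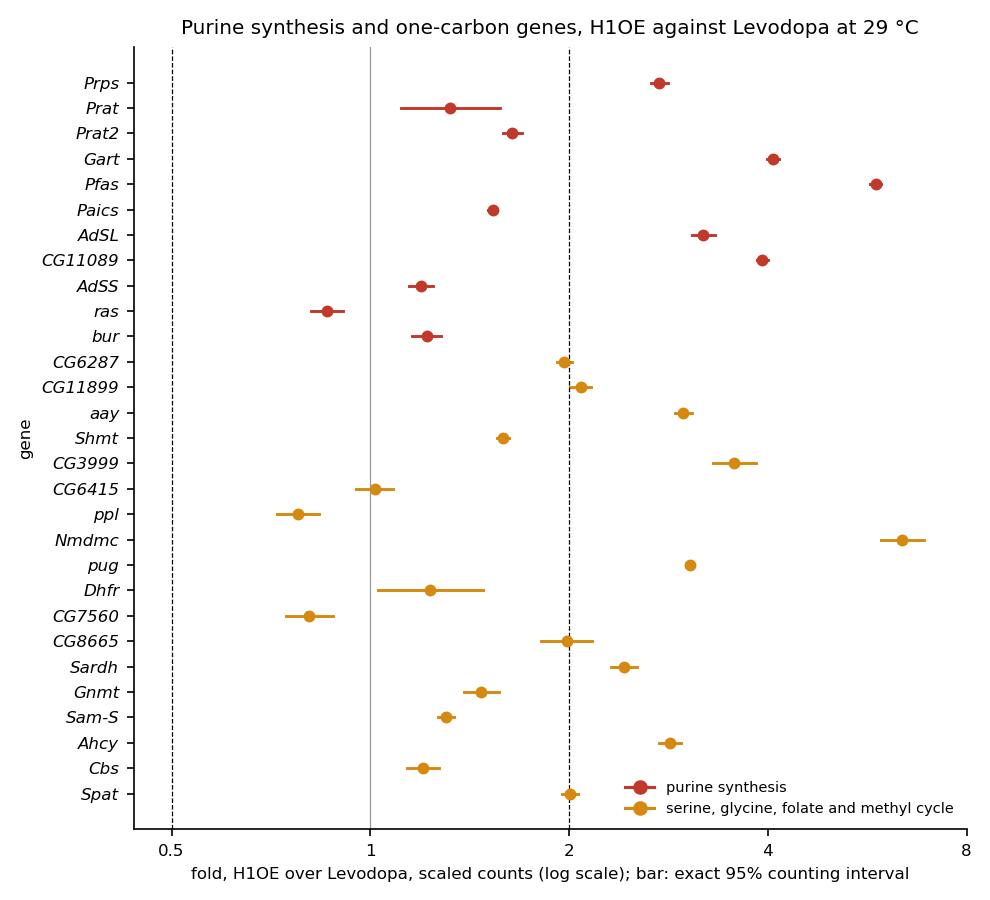
Fold of H1OE over Levodopa in scaled counts (log axis) with the exact 95% counting interval for 11 purine synthesis genes in pathway order (red) and 18 serine, glycine, folate and methyl cycle genes (orange), with dashed lines at 2-fold. Nmdmc at 6.39-fold and Pfas at 5.83-fold lie farthest to the right, and AdSS, ras and bur lie near 1.

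Chemosensory receptors were often lower in H1OE. Odorant receptors work as complexes of a tuning receptor with the co-receptor Orco in the cilia of antennal and palp neurons. Of 61 odorant receptor genes, 14 were compared, 10 were lower (71.4%, against 2.04% of all genes compared) and 0 were higher, with a median log2 ratio of -2.31. Orco had 412 counts in H1OE, 2189 in Levodopa and 1847 in the control, 5.56-fold lower in H1OE (5.0 to 6.19). Or59b had 16 counts against 343 (22.4-fold lower, 13.6 to 39.7), and 272 in the control. Or47b, a receptor for fly pheromones, had 2 counts against 94 and 56 in the control, and Or85e had 4 against 93 and 53 in the control. In the columns at 25 °C Or59b had 244 to 300 counts, Or47b 234 to 297 and Or85e 82 to 145. H1OE was thus the lowest of all labelled count columns for these receptors.

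Other odorant receptors that were lower were Or42b (14 against 128 counts), Or22a (3 against 64), Or59c (5 against 66), Or47a (4 against 54), Or22b (11 against 54) and Or92a (51 against 114). Not every receptor was lower: Or43b, Or63a, Or71a and Or82a had log2 ratios of -0.49, -0.39, -0.36 and 0.17. The 47 odorant receptor genes below the count minimum summed to 294 counts in H1OE, 700 in Levodopa and 748 in the control, and 7 of them were at 0 in both compared libraries. With no count minimum, 25 odorant receptor genes were lower and 0 higher.

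Among ionotropic receptors, the second olfactory family, the co-receptor genes Ir76b, Ir8a and Ir25a were lower, while Ir93a (0.39) was not. Ir76b had 22 counts in H1OE, 440 in Levodopa and 481 in the control (20.9-fold lower, 13.7 to 33.8). Ir8a had 10 against 142, and 168 in the control (14.9-fold lower, 7.85 to 31.7). Ir25a had 62 against 443, and 380 in the control (7.48-fold lower, 5.72 to 9.92). The tuning receptor for acids, Ir64a, had 3 against 112, and 93 in the control (39.1-fold lower, 13 to 192). These were the 4 that were lower of 13 compared (30.8%, against 2.04% of all genes compared). The other 9 ranged from -0.86 (Ir75a) to 0.39 (Ir93a), and among them Ir31a and Ir76a were within 0.03 of 0. Of the 4 gustatory receptor genes compared, the sugar receptor gene Gr64f (18 against 79 counts) and the bitter receptor gene Gr66a (14 against 53) were lower. This was 50%, against 2.04% of all genes compared.

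Genes of the cilium, the compartment that holds these receptors, were lower in part. This list was added after the values were seen. Of 24 compared, 10 were lower (41.7%, against 2.04% of all genes compared) and 0 higher (median -0.76). They were the intraflagellar transport genes Ttc26 (17 against 103 counts, and 28 in the control), Oseg5 (30 against 129), IFT54 (19 against 72), Cluap1 (25 against 88) and Ttc30 (59 against 135), the Bardet-Biedl genes BBS5 (11 against 74), Arl6 (21 against 68), BBS8 (29 against 84) and BBS9 (171 against 364), and the dynein heavy chain gene btv (192 against 432). Most rest on few reads, and calls were more frequent among all genes of low count, as given below. In the deposited FPKM 6 of the 24 were lower, and with 50 counts added 4. Others on the list were near equal, among them the kinesin gene Klp64D (-0.05), rempA (-0.03) and the transcription factor gene Rfx (-0.03).

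Other antennal and auditory organ genes, in a list also added after the values were seen, differed less. The odorant-binding protein gene Obp83a had 6733 counts in H1OE and 7637 in Levodopa (-0.25), Obp83b had 3475 and 4264 (-0.36), and lush had 1157 and 1415 (-0.35). Of 13 compared, which include the neuronal channel genes iav and nompC, 0 differed 2-fold, with a median of -0.31. In the list of all odorant-binding protein genes, 24 were compared, Obp56h was higher (271 counts against 72), and Obp19c (113 against 247) and Obp99b, given below, were lower (median -0.08). In that list 4.17% were thus higher and 8.33% lower, against 1.96% and 2.04% of all genes compared.

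**Figure D4:**
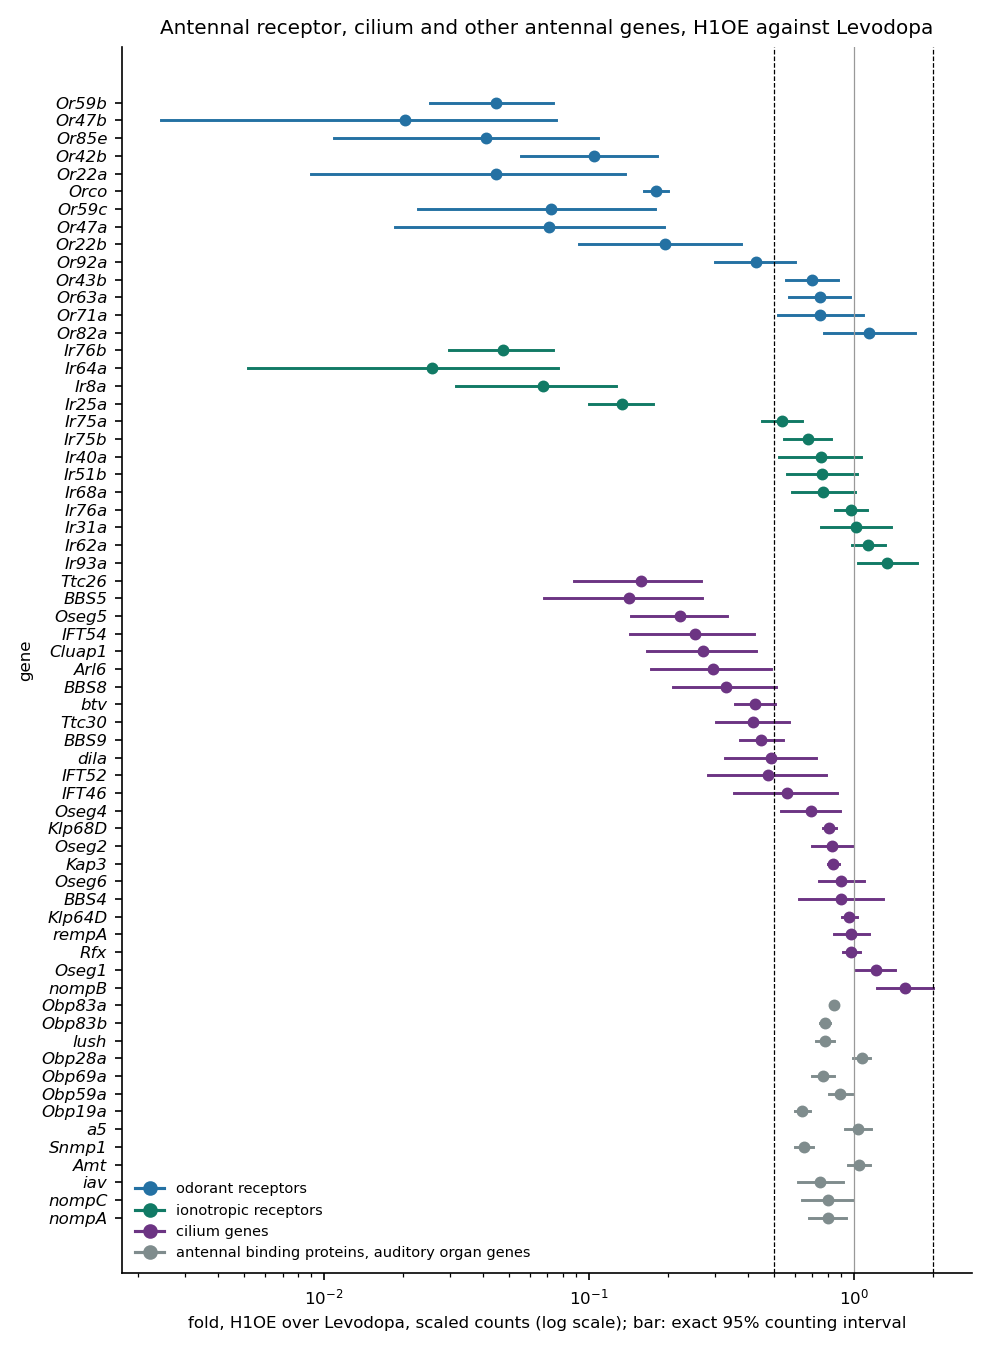
Fold of H1OE over Levodopa in scaled counts (log axis) with the exact 95% counting interval for the odorant receptors (blue), ionotropic receptors (green), cilium genes (purple) and other antennal and auditory organ genes (grey) that were compared, with dashed lines at 2-fold. Or47b at 2 against 94 counts and Ir64a at 3 against 112 lie farthest left, and the grey genes lie inside the dashed lines.

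Some peptide genes of the humoral immune response were higher in H1OE. Toll signalling, which answers fungi and Gram-positive bacteria, drives Drs and the bomanins, whereas the Imd pathway drives diptericins and attacins. Of 15 Toll target peptide genes compared, 7 were higher (46.7%, against 1.96% of all genes compared) and 0 lower (median 0.89). Drs, drosomycin, had 1312 counts in H1OE, 67 in Levodopa and 302 in the control (18.7-fold, 14.6 to 24.3). BomBc1 had 155 against 5, and 13 in the control, and BomS2 had 2305 against 404, and 599 in the control. The others were BomBc3, BomS5, BomS3 and Mtk, with log2 ratios of 1.75, 1.53, 1.31 and 2.07. Mtk, metchnikowin, had 72 counts in H1OE, 9 in Levodopa and 209 in the control. For Drs and BomBc1 the order was H1OE, control, Levodopa at 29 °C, but Drs had 984 to 9853 counts in the 25 °C columns and BomBc1 162 to 1288, so neither H1OE value was outside what other heads of the series showed.

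Imd target peptides had few counts in both libraries, and 2 of the 4 compared, DptB and AttB, were higher (50%, against 1.96% of all genes compared, median 0.22). DptB, a diptericin, had 65 counts in H1OE and 17 in Levodopa but 2435 in the control, and the attacin gene AttB had 199, 85 and 753. AttC had 50 counts in H1OE, 104 in Levodopa and 6267 in the control. In both compared libraries these genes were thus far under the control. The signalling gene Rel, the transcription factor of the Imd pathway, had 7536 counts against 3479 (2.07-fold, 1.99 to 2.15). Rel lies within the span of Nmdmc on the same strand. It was the 1 of 21 Toll and Imd signalling genes that differed 2-fold (4.76%, near the 4.00% of all genes compared).

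Other immune and stress genes were lower in H1OE. Of 12 peptidoglycan recognition and glucan binding protein genes compared, 2 were lower (16.7%, against 2.04% of all genes compared) and 0 higher. Their median was -0.01, with PGRP-LB highest at 0.55. PGRP-SC2, an amidase that degrades peptidoglycan, had 59 counts in H1OE, 502 in Levodopa and 1665 in the control (8.91-fold lower, 6.79 to 11.9), and PGRP-SB1 had 498, 1251 and 3657. Of the Turandot genes, which are induced by heat, dehydration and infection, TotX had 115 against 688 counts and TotA 394 against 1342, while TotC had 172 and 167.

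Storage proteins of the fat body were lower in H1OE. Lsp1beta, a larval serum protein, had 8571 counts in H1OE, 90388 in Levodopa and 144478 in the control (11-fold lower than in Levodopa, 10.8 to 11.3). Lsp2 had 906, 8698 and 20606 counts (10.1-fold lower, 9.38 to 10.8), and Lsp1alpha had 9, 97 and 2145. All 3 larval serum protein genes compared were lower, where 2.04% of all genes compared were, and for each the control was highest. fit, a peptide gene of the fat body that is expressed mainly in females and limits protein feeding, had 12 counts in H1OE, 362 in Levodopa and 1670 in the control (31.6-fold lower, 17.9 to 61.7). Obp99b, an odorant-binding protein gene, had 4907, 36758 and 70333 counts (7.84-fold lower, 7.61 to 8.08).

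At 25 °C these genes varied too. Lsp1beta had 1338 to 1788 counts in those columns, fit 8 to 18 and Obp99b 10380 to 65147. The H1OE level of fit was within the 25 °C range, and its Lsp1beta level was above it. The 8 genes listed as fat body markers summed to 3820 CPM in H1OE and 9948 CPM in Levodopa. Of the 7 compared, the 3 that were lower are Lsp1beta, Lsp2 and fit, given above. Lsp1beta alone had 317 CPM in H1OE and 3503 in Levodopa, so the sum in large part repeats those values. The 1 that was higher is mag, described above by its role in the gut. The largest part of both sums is the lipoprotein gene apolpp, with 91892 counts in H1OE and 157114 in Levodopa (-0.84). Female yolk protein genes were not called between H1OE and Levodopa. Yp3 had 1940 counts in H1OE, 2521 in Levodopa and 2635 in the control (-0.44). Yp2 had 51, 51 and 252 counts, and Yp1 had 65, 36 and 201 (0.65). For each of these the control was again highest. The male dosage compensation RNAs roX1 and roX2 were near equal (lncRNA:roX1 0.09, lncRNA:roX2 0.11). The part of tissue content in these differences was not tested.

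Genes of nutrient signalling differed at a few points. Thor, the insulin-repressed inhibitor of translation initiation, had 7075 counts in H1OE, 1392 in Levodopa and 1620 in the control (4.85-fold, 4.58 to 5.15). InR, the insulin receptor, had 1921, 818 and 827 counts (2.24-fold, 2.07 to 2.44). Both are targets of the transcription factor foxo. The insulin-like peptide gene Ilp2 had 361, 1443 and 1834 counts (4.18-fold lower, 3.73 to 4.71), while Ilp3 (-0.47) and Ilp5 (-0.43) did not reach 2-fold. These were the 3 called genes of 15 compared in the insulin list, where 4.00% of all genes compared were called. Pepck2, a gluconeogenic carboxykinase gene, had 339 counts against 3541, and 3964 in the control (10.9-fold lower, 9.78 to 12.3). tobi, a glucosidase gene regulated by insulin and adipokinetic hormone, had 9253 against 27894, and 54986 in the control (3.16-fold lower, 3.08 to 3.23). The sugar-responsive transcription factor gene sug had 264 against 802 counts (-1.63). Akh was too low to compare (4 and 5 counts), and its receptor gene AkhR had a log2 ratio of -0.84.

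Of 11 lipid droplet and lipase genes compared, 2 were lower (18.2%, against 2.04% of all genes compared). Of the same 11 genes 1, mag, was higher (9.09%, against 1.96%), and the median was -0.05. The lower ones encode droplet proteins. Jabba had 2301 counts against 5809 (2.64-fold lower, 2.52 to 2.77) and Lsd-1, a perilipin, had 4750 against 10621 (2.34-fold lower, 2.26 to 2.42). For both, the Levodopa and control counts were close (5326 for Jabba and 10555 for Lsd-1 in the control). The other perilipin gene, Lsd-2, had 15428 against 18852 (-0.36). The adipose triglyceride lipase gene bmm (brummer) had 8057 counts in H1OE, 4406 in Levodopa and 4813 in the control (1.75-fold, 1.68 to 1.81), short of 2-fold, and the hormone-sensitive lipase gene Hsl was near equal (0.04). Of 17 fatty acid and triglyceride synthesis genes 0 differed 2-fold, with Desat1 at 0.83 and ACC at 0.71. Of 15 fatty acid oxidation genes, 14 had a ratio below 0 and the median was -0.47, but 0 were called lower. The exception was bgm (bubblegum), an acyl-CoA synthetase gene, at 2.43-fold higher (2.33 to 2.54), and its neighbour hll, another acyl-CoA synthetase gene, was 2.82-fold higher (2.70 to 2.94).

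Of 26 neuropeptide genes compared, 6 were lower in H1OE (23.1%, against 2.04% of all genes compared) and 0 higher, with a median of -0.26. Hug, which encodes the feeding-related peptide hugin, had 220 counts against 954, and 822 in the control (4.54-fold lower, 3.92 to 5.28). The diuretic hormone gene Dh44 had 597 against 1447, and 1157 in the control. CCHa2, a nutrient-dependent peptide gene, had 1096 against 2162, and 3065 in the control. The remaining 3 were the neuropeptide-like precursor genes Nplp3 (1714 against 9174 counts), Nplp4 (38 against 145) and Nplp2 (10414 against 21450). The clock output gene to (takeout), which links feeding and circadian time, had 746 against 3125 counts (4.39-fold lower, 4.05 to 4.76). The core clock genes on the same list were not called.

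Genes of dopamine handling showed no 2-fold difference between the flies given its precursor and those not labelled as given it. Of 10 compared, 0 were called (median -0.06), where 4.00% of all genes compared were called. A list of 10 genes is too short to set this count apart from that share. The tyrosine hydroxylase gene ple, whose enzyme makes Levodopa, had 1091 counts in H1OE, 1907 in Levodopa and 1656 in the control (1.83-fold lower in H1OE, 1.70 to 1.97). The decarboxylase gene Ddc had 3926 and 3964 counts (-0.08). The transporter gene DAT (0.00) and the receptor genes Dop1R1 (0.08) and Dop2R (0.11) were near equal.

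Lists of neuronal genes held no 2-fold difference, where 4.00% of all genes compared were called. Outside the lowest class of genes by summed count, the share called was only 1.64 to 2.62% per class, as given below. No member was called among 17 synapse genes (median -0.00), 17 channel genes (0.11), 17 transmission genes (0.04), 9 nicotinic receptor genes (0.16), 12 neuron identity genes (0.05), 20 adhesion genes (0.01) and 31 dpr and DIP recognition genes (-0.07). The largest ratio among the neuron identity genes was that of jeb, with 2895 counts against 1634 (1.69-fold, 1.59 to 1.80). The lists of chromatin genes also held no call: 14 histone variant and chaperone genes (0.03), 9 deacetylase genes (0.05), 8 acetyltransferase genes (0.02) and 13 heterochromatin genes (0.08). Their largest ratios were those of Nap1 (0.60), Sirt4 (0.52) and trx (0.46). Each of these neuronal and chromatin lists is too short for the absence of calls to set it apart from those shares. With the 2-fold rule and 1 library a side, smaller differences in these lists were not assessed.

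**Figure D5:**
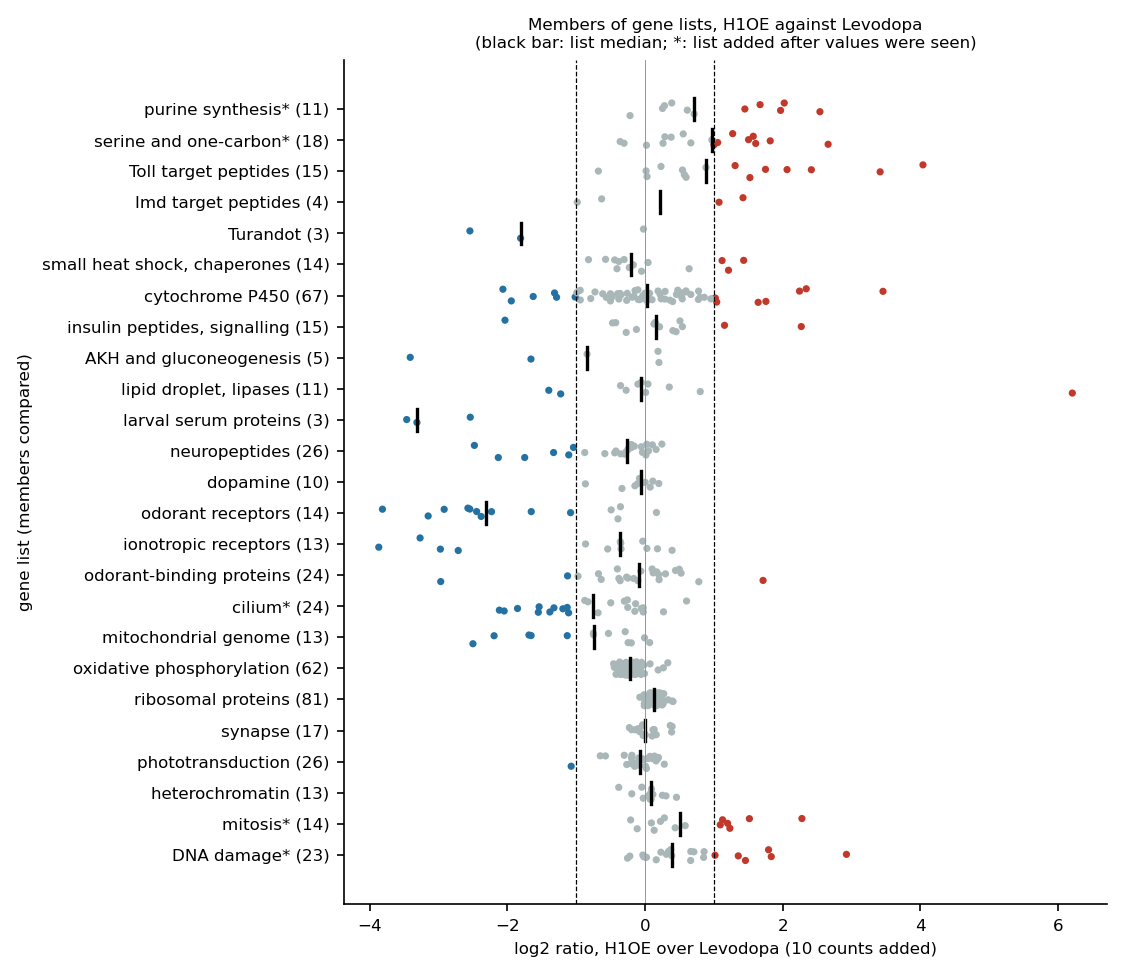
Log2 ratio of H1OE over Levodopa (horizontal axis, 10 counts added) for the members of 25 gene lists, 1 point a gene, red for higher and blue for lower by 2-fold, with a black bar at the list median and the number compared in brackets. Odorant receptors and larval serum proteins have medians of -2.31 and -3.31, purine and one-carbon genes 0.71 and 0.98, and synapse, ribosomal protein and oxidative phosphorylation genes stay inside the dashed 2-fold lines.

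Detoxification and heat shock genes were called in both directions. Of 67 cytochrome P450 genes, 7 were higher (10.4%, against 1.96% of all genes compared) and 6 lower (8.96%, against 2.04%), with a median of 0.02. Next to Cyp4p2, the largest differences were Cyp6a14 (233 against 36 counts) and Cyp304a1 (83 against 9) on the higher side and Cyp12d1-p (29 against 147) and Cyp6w1 (2588 against 9532) on the lower. Of 30 glutathione transferase genes 1 was higher (3.33%, near the 1.96% of all genes) and 3 were lower (10%, against 2.04%), led by GstE4 with 299 against 1233 counts. Of 14 small heat shock and other chaperone genes compared, 3 were higher (21.4%, against 1.96%) and 0 lower, with a median of -0.20. The small heat shock genes Hsp27 (306 against 102), Hsp67Bc (351 against 139) and Hsp23 (1512 against 659) were higher in H1OE, whereas Hsp26 (0.64) and Hsp67Ba (-0.41) were not called. The heat-inducible Hsp70Bbb had 223 counts in H1OE, 544 in Levodopa and 105 in the control. The Hsp70 copies are near-identical and share reads, so the value of a single copy is uncertain. Their list as a whole summed to 3727 counts in H1OE and 3992 in Levodopa.

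Transcripts of the mitochondrial genome were lower in H1OE for part of the genes. Of 13 compared, 5 were lower (38.5%, against 2.04% of all genes compared) and 0 higher (median -0.75). The complex I subunit gene mt:ND3 had 441 counts in H1OE, 2429 in Levodopa and 1335 in the control (5.77-fold lower, 5.21 to 6.4), and mt:ND2 had 1452, 6377 and 4220. mt:ND1 had 9977, 30030 and 26848, and the ATP synthase gene mt:ATPase6 had 23493, 49115 and 50795. The remaining gene was that of the small ribosomal RNA, mt:srRNA, with 58, 200 and 140. The most abundant transcript, mt:CoI, was near equal with 530726 and 483603 counts (0.07). The mitochondrial genome as a whole took 4.47% of counts in H1OE and 4.96% in Levodopa. Nuclear subunit genes of oxidative phosphorylation had a median of -0.22 with 0 of 62 called, and cytoplasmic ribosomal protein genes 0.14 with 0 of 81 called.

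Differences that were close to all or none, with at least 100 counts against at most 3, fell on features of several kinds. They were Ir64a and y, given above, a copia insertion, an unnamed region and a non-coding RNA gene. Other insertions with large differences are given with these. FBti0019110, a copia insertion at 2L:2294097-2299243, had 208 counts in H1OE and 0 in both Levodopa and the control, at least 66.2-fold higher against a floor of 3 counts in the Levodopa library, or 53.4-fold at the lower limit of the exact counting interval. In the 25 °C columns it had 63 to 181 counts. An unnamed copia-like transcribed region at 2L:22462898-22463514 had 178 counts in H1OE, 1 in Levodopa and 16 in the control. FBti0020031, another copia insertion, had 246, 13 and 33 counts, and 141 to 373 at 25 °C. Of 8 copia-like features compared, these 3 were higher, where 1.96% of all genes compared were, and 0 were lower. FBti0019183 (24 against 55 counts, -0.99) and FBti0019469 (45 against 93, -0.96) were just short of 2-fold lower. Among insertions called lower, FBti0018971, a diver insertion by the Ensembl annotation, had 8 counts in H1OE, 223 in Levodopa and 215 in the control. It had 0 to 1 at 25 °C. FBti0019149, a G2 insertion, had 17, 169 and 104 counts, and 0 in every column at 25 °C. At FBti0019110, FBti0020031, FBti0018971 and FBti0019149 H1OE was on the side of the 25 °C libraries and away from the wild-type libraries of its own temperature. The insertions each strain carries are not given, and their part in these values was not tested. Over all 141 transposable element features compared, 12 were higher and 5 lower (12.1% called, against 4.00% of all genes compared, median 0.02). Their median summed count was only 146. In the lowest class of genes by summed count 11.7% were called, as given below, which is near their share. Reads of repeated copies may be assigned to the wrong one. The non-coding RNA gene lncRNA:CR46216 had 103 counts in H1OE, 0 in Levodopa and 3 in the control, at least 32.8-fold higher against the same floor, or 26.2-fold at the lower limit of the interval.

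Genes of cell division and DNA repair gave a smaller group on the higher side. Both lists were added after the values were seen. The DNA photolyase gene phr, which repairs ultraviolet damage in light, had 928 counts in H1OE, 108 in Levodopa and 83 in the control (8.21-fold, 6.72 to 10.1). Of 23 DNA damage and repair genes compared, 6 were higher (26.1%, against 1.96% of all genes compared) and 0 lower (median 0.39). Among them were Sid, a stress-induced nuclease gene (243 against 58 counts), and Gadd45 (427 against 142). RecQ4 had 58 counts in H1OE, 9 in Levodopa and 52 in the control, which was thus nearer to H1OE. Of 14 mitosis genes compared 6 were higher (42.9%, against 1.96% of all genes compared), with 51 (Nuf2) to 253 (mars) counts in H1OE. Counts here are in H1OE, Levodopa and control. The control was nearer to Levodopa for the kinase genes aurB (70, 6 and 0) and Cdk1 (59, 19 and 18) and for pon (132, 48 and 56). It was nearer to H1OE for the kinesin gene Klp67A (94, 25 and 55), Nuf2 (51, 17 and 39) and mars (253, 108 and 200). In the deposited FPKM 3 of the mitosis genes were higher, and with 50 counts added 1. Calls were more frequent among all genes of low count, as given below.

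The called genes were unevenly spread over depth and chromosomes. In the lowest of 5 equal classes of genes by summed count, 11.7% were called, against 1.64 to 2.62% in the others. On the large autosomal arms the share ran from 3.49% on 3L to 5.29% on 2R, and was 1.91% on X. At the edge of the count rule, 26 genes had a larger count of exactly 50, with log2 ratios from -1.10 to 1.87, and 25 genes just outside had 49, from -1.41 to 2.53.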

How the data were processed

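PolyA RNA of fly heads was sequenced in paired ends. Reads were aligned with HISAT2 2.2.1 to dm6, per the submitters' processing notes, and how reads were counted, with which strand setting and annotation, is not given in the sources used here. For the 29 °C libraries the deposited files hold read counts per gene as whole numbers. The authors also deposited FPKM per sample, which are scaled to gene length and library size. The count table held 2 further columns of no labelled sample, which were not used. Counts of H1OE and Levodopa were scaled with edgeR 4.0.16 (TMM), 10 counts were then added to each (scaled to the mean of the library sizes), and genes with at least 50 counts in 1 library were called at 2-fold. With 1 library a side no test was run. Folds are ratios of scaled counts with an exact 95% binomial counting interval. The library size behind the deposited FPKM lay 0.2% below the total in H1OE and 0.957% below it in Levodopa. The size rule was tested on simulated data. Annotation overlaps came from Ensembl release 115, where 9105 of the genes compared had the same start and end, and 103 of 364 annotated called genes overlapped an exon of another gene.

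Members, 68 gene lists and alternatives were chosen with earlier results of these data known, and 6 further lists were added after values were seen. Named genes were the 15 largest ratios in each direction, genes with at least 100 counts in 1 library and at most 3 in the other, the 3 largest of each list and a fixed set of names. Other genes named in the text were chosen after their values were seen. Alternatives were scaling by total counts, by DESeq2 1.42.0 size factors or without the mitochondrial genome, other count minimums and added counts, the deposited FPKM, and a length trend removed. Counts at 25 °C come from a separate table and are shown unscaled.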

Additional observations from a re-analysis of the deposited data

How the results depend on the processing

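Of the 180 higher and 187 lower genes, the calls depended mainly on how low counts were treated. A count minimum of 10 gave 361 higher and 357 lower genes, and no minimum gave the same 361 and 357, because 10 counts were added to every gene. A minimum of 200 counts gave 91 and 102. Adding 50 counts in place of 10 gave 104 and 112, all of them among the genes called with 10. Scaling by total counts (185 and 182), by DESeq2 size factors (180 and 187) or without the mitochondrial genome (183 and 186), adding 2 counts (216 and 215), the deposited FPKM (151 and 158) and removal of a length trend (184 and 183) stayed within 1.5 times. So did 2 alternatives chosen after seeing the data, protein-coding genes alone (155 and 176) and genes without exon overlap (126 and 135). Both are subsets of the same calls. No named gene called at 2-fold changed sign under any of these. That could hardly have come out otherwise, because the scaling moved little and all settings use the same reads. Over all named genes and alternatives 42 calls of single genes changed and 2121 were kept. No paired analysis was possible because each side was 1 library, and for the same reason no replicate could be left out. Depth limits low genes: Or47b, with 2 and 94 counts, was 49.2-fold lower with a counting interval of 13.2 to 412.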

Other observations

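Annotation terms deposited with the 25 °C table describe the same values by other groupings. Of 1558 terms with at least 8 genes compared, 29 had at least 20% of their genes called in 1 direction, where 1.96% of all genes were higher and 2.04% lower. Among these 29, olfactory receptor activity had 10 of 16 genes lower and 0 higher in H1OE, and intraciliary transport had 4 of 9 lower and 0 higher. Its lower genes included CG42366 and dnd, an Arl-type GTPase gene, which no list held. Antibacterial humoral response had 9 of 20 higher and 0 lower. The glycine, serine and threonine pathway had 6 of 27 higher and 1 lower with a median log2 ratio of -0.02, and the folate pathway 4 of 12 higher and 1 lower with a median of 0.48. Hormone activity had 3 of 9 lower, namely Ilp2, Dh44 and Hug. These are descriptions of how many members passed the 2-fold size rule.

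Some called genes lay side by side. How many such pairs a called share of 4.00% would give without any clustering was not worked out, so these counts are a description. In 32 pairs of neighbouring genes both members were called, and in 27 of these pairs both went the same way. Of these 27, 7 had overlapping spans, as in atk with mag, Gart with Pcp and Nmdmc with Rel. Others did not overlap, such as bgm with hll, Or22a with Or22b, BomS2 with BomS3 and Hsp23 with Hsp27, each pair of 1 gene family or enzyme class.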
